A study of Mus musculus with 11 samples.

Results

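The genes described here encode the DNA replication machinery of mouse T cells, from the proteins that mark and open replication origins to those that join the finished strands and restore chromatin. They were chosen by name and function, as 42 genes. No measured value was used as a rule, but earlier results of these data were known. Of the 42 genes, 41 had a probe set with 1 gene symbol on the arrays, out of 18194 genes measured in that way. The expression of Chaf1a was not analysed here, and it enters only the promoter counts. Each gene was read by its probe set of highest mean level over all arrays, and all values are log2 RMA expression levels.

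T cells were purified by negative magnetic bead selection from spleens of female mice 3 to 4 months old. C57BL6 wild-type mice were compared with crbn-/- mice, called knockout here, which lack cereblon, a protein that presents substrates to a CUL4 ubiquitin ligase. The sources used here do not give which part of Crbn was removed, or whether in all cells. Cells were either naive or were kept for 12 hours with anti-CD3 bound to the plate at 5 µg/ml and anti-CD28 at 1 µg/ml, and the stimulated cells are called activated. There were 3 arrays of wild-type naive cells, 3 of knockout naive cells, 2 of wild-type activated cells and 3 of knockout activated cells. The arrays of a group are named biological replicates in the labels, but nothing says that they came from separate animals, so the p-values measure the spread between these samples. No group cultured without stimulation is listed, so stimulation and culture cannot be told apart.

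Crbn served as the check of the genotype. Its level was 10.06, 10.21 and 10.09 in wild-type naive cells and 8.97, 9.08 and 8.91 in naive cells of the knockout. After activation it was 9.71 and 9.47 in the wild type and 8.70, 8.77 and 8.58 in the knockout. In both states all knockout arrays were lower than all wild-type arrays, and the knockout retained signal (limma adjusted p = 8.72e-05 in naive and 0.00405 in activated cells). The T cell marker Cd3d, a chain of the antigen receptor complex, lay between 12.14 and 12.98 in the 11 arrays, and 0 of 9 measured T cell markers were at background in any group. Array medians lay between 5.84 and 5.89 log2, and precision is limited by the number of arrays.

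Replication of DNA begins at origins, which the origin recognition complex marks in G1 phase. Cdc6 and Cdt1 load the ring-shaped MCM2-7 helicase there, and Cdc45 and the GINS complex turn that helicase on at the start of S phase. Primase and the polymerases alpha, delta and epsilon copy the strands, and replication factor C loads the PCNA clamp. Resting T cells do not replicate their DNA, and build the machinery up after antigen receptor and CD28 signals, before their first division. Many of the genes are known targets of E2F transcription factors, which are freed when the retinoblastoma proteins are phosphorylated.

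Because many of these genes are taught as E2F targets, their promoters were read for 2 short E2F-type motifs, TTCCCGC and TTGGCGC, on both strands. Promoters were RefSeq windows of the build GRCm38.p6, from 250 bases before to 50 bases after each start, and 33 of the 42 genes had at least 1. Dscc1, Gins1, Gins2, Gins4, Mcm4, Pole, Prim2, Rfc2 and Tipin had none in that table. Either motif was found in 18 of 33 genes (54.5%), against 2105 of 27025 genes of the whole table (7.8%). By window, TTCCCGC stood in 37.5% of 40 windows of these genes and in 4.6% of all 32851 windows. TTGGCGC stood in 20.0% and 2.5%. The shorter motif CCAAT was found in 63.6% of the 33 genes and in 41.1% of all genes. Its reverse complement can share letters with TTGGCGC, and the E2F-type motifs can overlap each other.

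Helicase genes with matches that rose in both genotypes (Mcm3, Mcm5 and Mcm6) and a polymerase gene with several matches (Pola1) are shown. Mcm2 also rose in both genotypes, but its window held neither motif and is not shown. Beside them stand the genes with the largest called rise and fall (Ung and Rpa1). The windows are read 5′ to 3′ along the strand of the gene, with matches to either E2F-type motif in capitals. They are Mcm3 on the minus strand at chr1:20820263-20820562, Mcm5 on the plus strand at chr8:75109259-75109558 and Mcm6 on the minus strand at chr1:128359656-128359955. Pola1 lies on the minus strand at chrX:93632106-93632405, Ung on the plus strand at chr5:114130185-114130484 and Rpa1 on the minus strand at chr11:75348334-75348633.
Mcm3: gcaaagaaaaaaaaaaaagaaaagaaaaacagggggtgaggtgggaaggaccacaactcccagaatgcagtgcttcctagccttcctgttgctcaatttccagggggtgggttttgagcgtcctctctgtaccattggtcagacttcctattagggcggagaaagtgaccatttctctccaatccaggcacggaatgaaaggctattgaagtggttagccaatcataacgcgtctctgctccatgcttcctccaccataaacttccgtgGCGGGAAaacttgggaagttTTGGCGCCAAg
Mcm5: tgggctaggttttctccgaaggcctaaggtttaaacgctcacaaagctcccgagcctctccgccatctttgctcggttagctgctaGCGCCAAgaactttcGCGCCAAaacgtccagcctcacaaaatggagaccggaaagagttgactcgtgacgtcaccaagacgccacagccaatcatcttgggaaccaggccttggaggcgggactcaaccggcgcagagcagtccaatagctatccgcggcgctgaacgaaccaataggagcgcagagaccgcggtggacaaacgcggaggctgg
Mcm6: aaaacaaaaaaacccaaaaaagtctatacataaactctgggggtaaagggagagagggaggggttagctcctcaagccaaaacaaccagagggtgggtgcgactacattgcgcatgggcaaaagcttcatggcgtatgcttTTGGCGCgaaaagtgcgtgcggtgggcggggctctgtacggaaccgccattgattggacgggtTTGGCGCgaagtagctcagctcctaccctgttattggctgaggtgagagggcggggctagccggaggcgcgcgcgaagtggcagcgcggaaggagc
Pola1: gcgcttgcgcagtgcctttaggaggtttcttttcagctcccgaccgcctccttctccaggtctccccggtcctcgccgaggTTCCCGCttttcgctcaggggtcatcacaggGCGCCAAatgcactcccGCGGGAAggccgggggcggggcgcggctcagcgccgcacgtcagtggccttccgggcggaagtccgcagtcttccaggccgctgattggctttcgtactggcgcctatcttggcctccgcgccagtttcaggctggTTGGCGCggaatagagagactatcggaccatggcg
Ung: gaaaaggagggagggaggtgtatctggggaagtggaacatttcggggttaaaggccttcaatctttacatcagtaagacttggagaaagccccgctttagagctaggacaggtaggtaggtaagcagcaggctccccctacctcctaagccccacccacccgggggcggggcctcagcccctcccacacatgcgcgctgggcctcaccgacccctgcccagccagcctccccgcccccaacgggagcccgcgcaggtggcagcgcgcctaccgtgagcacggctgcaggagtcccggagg
Rpa1: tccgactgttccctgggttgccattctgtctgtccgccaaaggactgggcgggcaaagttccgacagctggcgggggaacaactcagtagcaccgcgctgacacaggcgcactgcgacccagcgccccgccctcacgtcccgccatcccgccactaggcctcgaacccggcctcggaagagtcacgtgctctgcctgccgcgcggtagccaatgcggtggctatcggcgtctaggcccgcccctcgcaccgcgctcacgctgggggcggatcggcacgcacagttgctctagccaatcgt
The capitals at the end of the Mcm3 window are a pair of overlapping matches on opposite strands. In the windows of Ung and Rpa1 neither motif was found, which says only that these letters are not in these 300 bases. Of the genes with a window that rose in activated knockout cells, 12 of 23 held a motif, and of those that did not pass, 5 of 8 did. In wild-type activation the counts were 7 of 15 and 9 of 15. A match is a description of the letters and shows no binding.

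**Figure D1:**
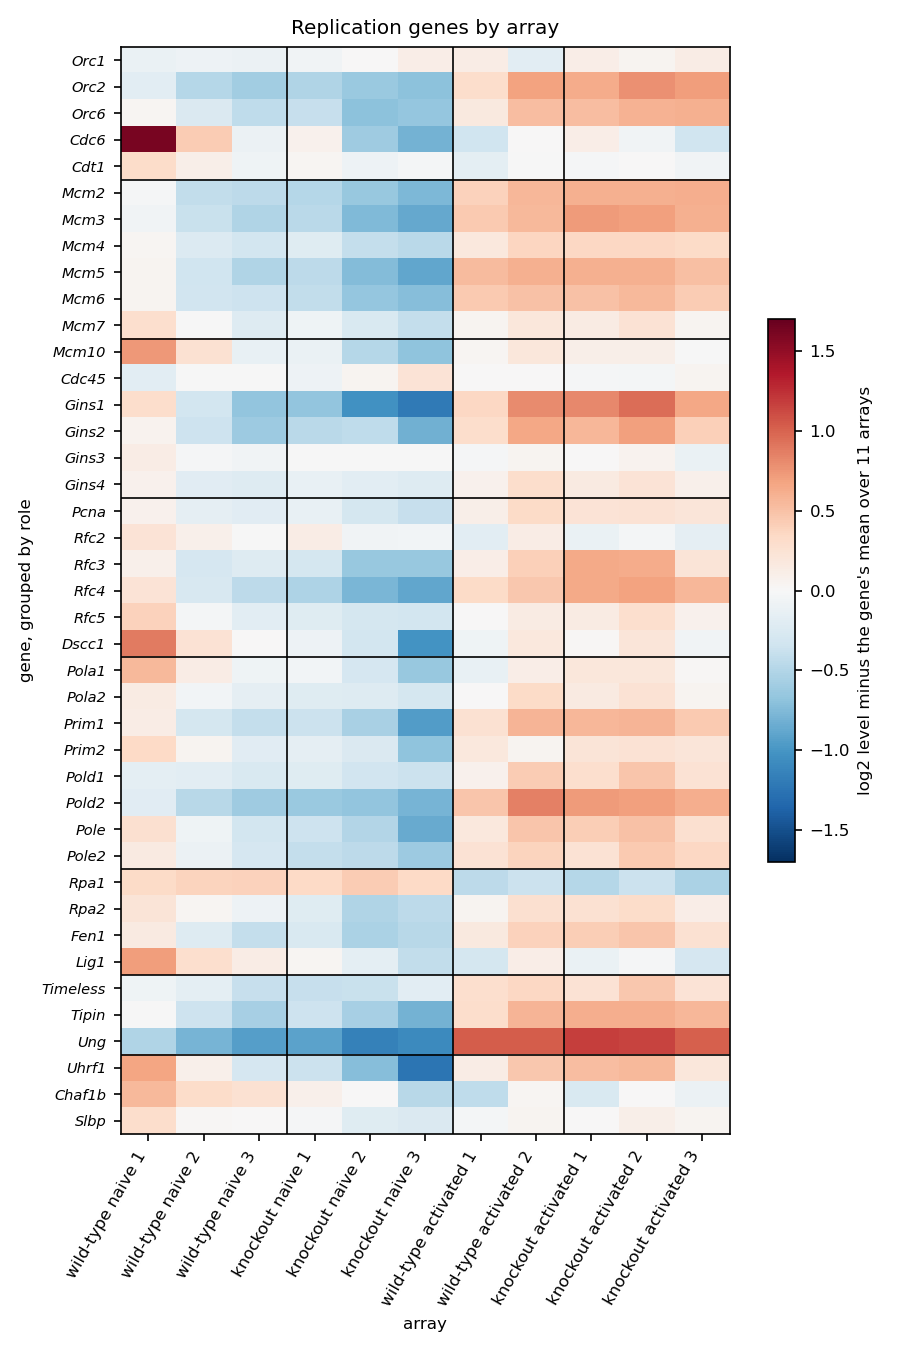
Level of each of the 41 replication genes (rows, grouped by role) in each of the 11 arrays (columns), as log2 level minus that gene's mean over the 11 arrays. Most rows are red in the 5 activated arrays and blue in the knockout naive arrays, Rpa1 runs the other way between states, and wild-type naive array 1 is the highest naive array for 38 of 41 genes.

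Activation was compared with the naive state within each genotype. In knockout cells 30 of 41 replication genes rose and 1, Rpa1, fell (limma, Benjamini-Hochberg adjusted p under 0.05 over all genes), where 43.2% of the 18194 genes were called, 20.7% higher and 22.4% lower. In wild-type cells 20 rose and 2, Rpa1 and Chaf1b, fell, where 41.1% of all genes were called, 20.2% higher and 20.9% lower. The median change of the 41 genes was 0.63 log2 in knockout and 0.30 log2 in wild-type cells, against -0.03 and 0.06 over all genes. The 20 genes that rose in wild-type cells also rose in knockout cells, and the activation comparisons share no arrays. Over all genes 2919 of the 3672 that rose in wild-type cells did so (79.5%). Arrays of the states did not overlap for 21 genes higher and 3 lower in wild-type cells (31.1% and 25.8% of all genes), and for 32 higher and 1 lower in knockout cells (24.5% and 28%). A further 10 genes passed in knockout cells alone (Mcm7, Mcm10, Rfc3, Rfc5, Pola1, Pola2, Prim2, Pole, Rpa2 and Uhrf1), and 9 passed in neither, against 850 and 9123 of all genes. Whether these 10 differ between genotypes is a matter for the interaction, which called 0 genes and is given further on.

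The origin genes were split. Orc2, a core subunit of the origin recognition complex, was at 8.36, 8.04 and 7.94 in wild-type naive cells and at 8.03, 7.90 and 7.84 in knockout naive cells. After activation it was at 8.83 and 9.22 in the wild type and at 9.16, 9.31 and 9.24 in the knockout. All 5 activated arrays stood above all 6 naive ones, a rise of 0.91 (SE 0.13, 1.88-fold, limma adjusted p = 9.02e-05) in wild-type and 1.32 (SE 0.12, 2.49-fold, limma adjusted p = 7.63e-07) in knockout cells. Orc6, the smallest subunit of that complex, rose by 0.57 (SE 0.14) in wild-type and 1.15 (SE 0.13) in knockout cells. The loading factors Cdc6 and Cdt1 did not pass in either genotype, nor did Orc1, the subunit that binds ATP and helps recruit Cdc6.

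Cdc6 had the widest spread of all the genes. Its naive levels were 8.92, 7.74 and 7.21 in the wild type, and 7.38, 6.70 and 6.50 in the knockout. Its activated levels were 6.97 and 7.32 in the wild type and 7.42, 7.25 and 6.97 in the knockout. Wild-type naive array 1 stood alone at the top, while the activated arrays fell within the range of the naive ones. The change on activation was -0.81 (SE 0.38, limma adjusted p = 0.113) in wild-type and 0.35 (SE 0.34, limma adjusted p = 0.463) in knockout cells. Cdt1 differed by -0.20 (SE 0.10) and 0.01 (SE 0.09), and Orc1 by 0.07 and 0.08. A dimmer Orc1 probe set rose by 1.28 in knockout cells, so the probe sets of Orc1 disagree.

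Subunits of the MCM2-7 helicase rose together. All 6 subunits rose in knockout cells and 5 of 6 in wild-type cells, with median changes of 1.17 and 0.73 log2. Mcm5, which closes the gate of the ring with Mcm2, was at 11.54, 11.16 and 10.98 in wild-type naive and at 11.05, 10.76 and 10.62 in knockout naive cells. On activation it was at 12.04 and 12.11 in wild-type and at 12.10, 12.11 and 12.00 in knockout cells. The activated arrays were nearly level and all lay above the naive arrays, with changes of 0.85 (SE 0.15, limma adjusted p = 4.08e-04) and 1.26 (SE 0.13, limma adjusted p = 3.22e-06).

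Mcm3 was at 10.42, 10.11 and 9.96 in wild-type naive, 10.02, 9.73 and 9.61 in knockout naive, 10.93 and 11.04 in wild-type activated, and 11.21, 11.18 and 11.09 in knockout activated cells. It rose by 0.82 (SE 0.14, 1.76-fold) in wild-type and by 1.37 (SE 0.12, 2.59-fold) in knockout cells. Neither genotype had an activated array within its naive range. Mcm2 rose by 0.78 and 1.24, Mcm6 by 0.68 and 1.09, and Mcm4 by 0.44 and 0.69 in wild-type and knockout cells. Mcm7 was the exception, at 0.10 (SE 0.14, limma adjusted p = 0.604) in wild-type cells and a rise of 0.39 (SE 0.12, limma adjusted p = 0.0191) in knockout cells. The probe set of Mcm5, like those of Pold1 and Fen1, has the name ending that the maker gives to probe sets that may also match other transcripts. Those of Mcm2, Mcm3, Mcm7 and Gins2 have the ending of probe sets shared by several transcripts.

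Among the 6 genes that turn the helicase on, 3 rose in wild-type and 4 in knockout cells. The GINS complex, a ring of Gins1 to Gins4 that bridges the helicase and polymerase epsilon, was itself divided. Gins1 was at 7.95, 7.34 and 6.97 in wild-type naive, 6.97, 6.62 and 6.44 in knockout naive, 7.99 and 8.44 in wild-type activated, and 8.46, 8.60 and 8.30 in knockout activated cells. In the wild type the lowest activated array lay only just above the highest naive one, while in the knockout the groups were far apart. The rise was 0.80 (SE 0.24, limma adjusted p = 0.0158) in wild-type and 1.77 (SE 0.21, 3.42-fold, limma adjusted p = 1.11e-05) in knockout cells.

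Gins2 rose by 0.78 (SE 0.18) and 1.12 (SE 0.16), and Gins4 by 0.29 and 0.33, in wild-type and knockout cells. Gins3 changed by -0.01 in both, with all 11 arrays between 6.91 and 7.15. Mcm10, a further activation factor of the helicase, passed in knockout cells (0.49, SE 0.18, limma adjusted p = 0.0452), and its wild-type value was -0.18. That call was lost on leaving out any of 8 of the 11 arrays, so it lies at the threshold. Cdc45, the helicase cofactor, gave 0.07 in wild-type and -0.07 in knockout cells by its brightest probe set, but 0.62 in knockout cells by the other one (limma adjusted p = 0.0101), so its direction depends on the probe set.

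The sliding clamp and its loaders came next. Pcna, the clamp, was at 12.22, 11.99 and 11.95 in wild-type naive, 12.02, 11.84 and 11.75 in knockout naive, 12.24 and 12.47 in wild-type activated, and 12.37, 12.39 and 12.35 in knockout activated cells. All activated arrays of each genotype stood above its naive arrays, by a mean of 0.30 (SE 0.11, limma adjusted p = 0.0367) in wild-type and 0.50 (SE 0.09, limma adjusted p = 5.99e-04) in knockout cells. Of the replication factor C subunits measured, Rfc4 rose in both genotypes, Rfc3 and Rfc5 passed in knockout cells, and Rfc2 passed in neither.

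Rfc4 was at 9.13, 8.62 and 8.45 in wild-type naive, 8.36, 8.11 and 8.01 in knockout naive, 9.22 and 9.35 in wild-type activated, and 9.54, 9.58 and 9.46 in knockout activated cells. The knockout arrays were the lowest in the naive state and the highest in the activated state, without overlap in either. Its rise was 0.55 (SE 0.16, limma adjusted p = 0.0152) in wild-type and 1.36 (SE 0.14, limma adjusted p = 3.66e-06) in knockout cells. Rfc3 gave 0.39 (SE 0.16) in wild-type cells, just short of the threshold at a limma adjusted p of 0.0648, and rose by 1.02 (SE 0.14) in knockout cells. Rfc5 gave 0.01 and 0.44. Rfc2 gave -0.13 and -0.10, and Dscc1, a subunit of an alternative clamp loader used in sister chromatid cohesion, gave -0.32 and 0.52 without passing.

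All 8 polymerase and primase genes rose in knockout cells and 4 in wild-type cells, with medians of 0.73 and 0.37 log2. Pold2, the second subunit of polymerase delta, was at 9.50, 9.22 and 9.09 in wild-type naive and at 9.06, 9.02 and 8.91 in knockout naive cells. It was at 10.17 and 10.55 in wild-type activated and at 10.42, 10.40 and 10.32 in knockout activated cells. The states were widely separated, with a rise of 1.08 (SE 0.13, 2.12-fold) in wild-type and 1.38 (SE 0.11, 2.60-fold) in knockout cells. The catalytic subunit Pold1 rose by 0.45 and 0.63.

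Prim1, the catalytic subunit of primase, rose by 0.61 (SE 0.17) and 1.15 (SE 0.16), and its partner Prim2 gave 0.05 and a rise of 0.59. Pola1, the catalytic subunit of polymerase alpha, gave -0.21 (SE 0.18) in wild-type cells and rose by 0.46 (SE 0.16, limma adjusted p = 0.0345) in knockout cells. Its accessory subunit Pola2 gave 0.19 and rose by 0.39. For polymerase epsilon, the catalytic Pole gave 0.36 (limma adjusted p = 0.117) and rose by 0.97, and Pole2 rose by 0.39 and 0.84. The second brightest probe set of Pole2 gave -0.18 and -0.004, so its rise rests on the brightest one.

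**Figure D2:**
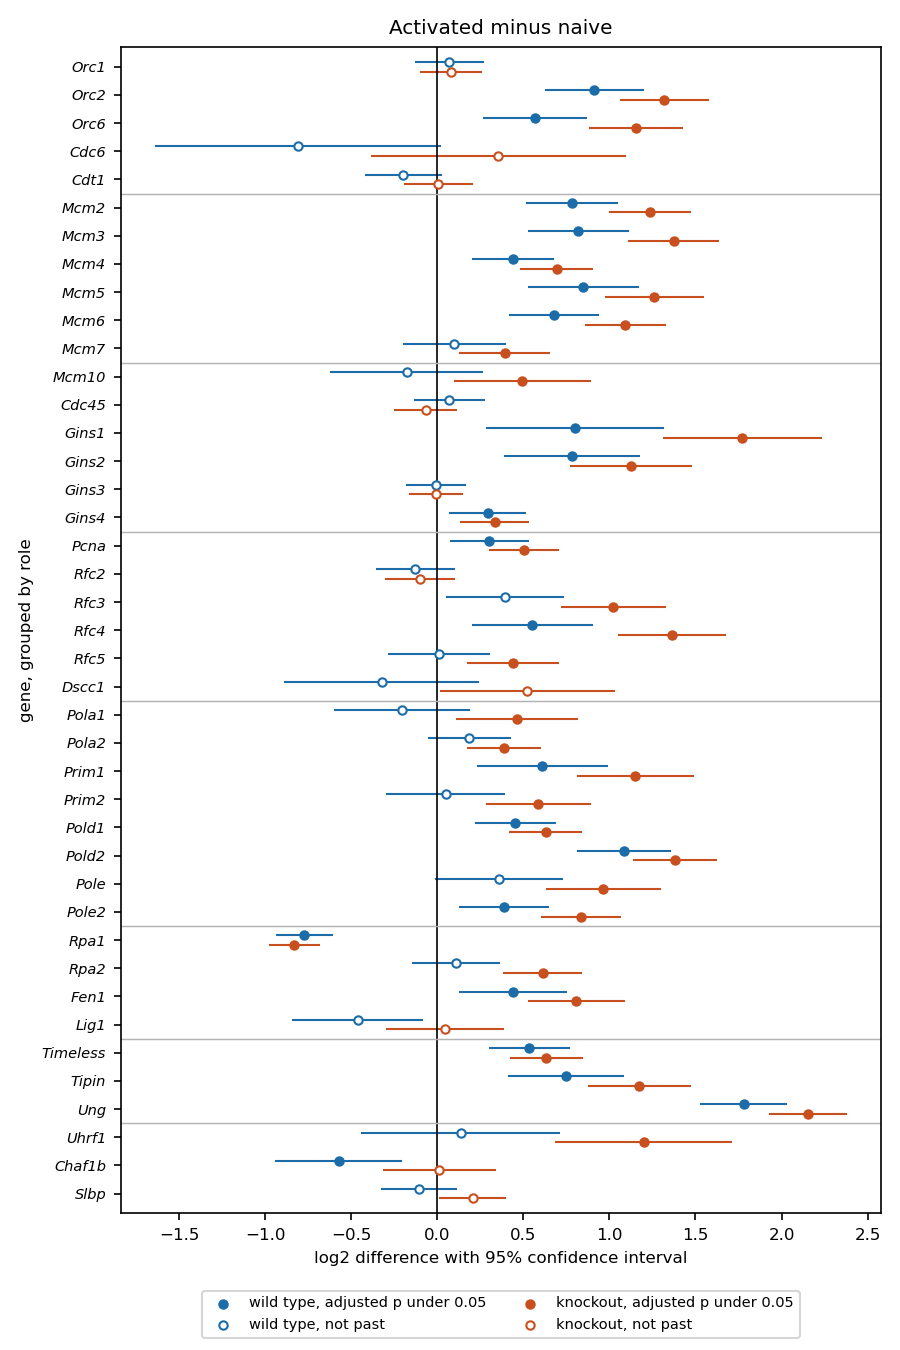
Change on activation of each of the 41 genes (rows, grouped by role) in log2 units, with 95% confidence intervals from limma, in wild-type cells (blue) and knockout cells (orange); filled points passed an adjusted p of 0.05. The knockout point lies to the right of the wild-type point for 39 of 41 genes, Ung has the largest rise and Rpa1 is below 0 in both genotypes.

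Rpa1 and Rpa2 are subunits of replication protein A, which coats single-stranded DNA, and they moved apart. Rpa1 was at 11.80, 11.85 and 11.86 in wild-type naive, 11.80, 11.90 and 11.81 in knockout naive, 11.03 and 11.10 in wild-type activated, and 10.98, 11.10 and 10.93 in knockout activated cells. It was the least variable gene within the naive state and the lowest naive array lay well above the highest activated array. The fall was 1.71-fold in wild-type (log2 -0.77, SE 0.08, limma adjusted p = 3.08e-06) and 1.78-fold in knockout cells (-0.83, SE 0.07, limma adjusted p = 3.29e-07). Its second probe set gave -0.73 in wild-type cells.

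Rpa2 gave 0.11 (SE 0.12) in wild-type cells and rose by 0.61 (SE 0.11, limma adjusted p = 2.87e-04) in knockout cells. Fen1, the nuclease that trims Okazaki fragment flaps, rose by 0.44 and 0.81. Lig1, the ligase that seals them, gave -0.46 (SE 0.18, limma adjusted p = 0.0517) in wild-type and 0.04 in knockout cells.

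The genes of fork protection and uracil removal rose in both genotypes, 3 of 3. Ung encodes the uracil-DNA glycosylase, whose nuclear form removes uracil at replication forks and also serves antibody gene diversification in B cells. It was at 8.48, 8.20 and 8.06 in wild-type naive, 8.09, 7.85 and 7.92 in knockout naive, 10.03 and 10.03 in wild-type activated, and 10.17, 10.14 and 10.01 in knockout activated cells. No other replication gene separated the states as widely. The rise was 1.78 (SE 0.12, 3.43-fold, limma adjusted p = 9.47e-08) in wild-type and 2.15 (SE 0.10, 4.45-fold, limma adjusted p = 3.15e-09) in knockout cells. Timeless and Tipin, partners in the complex that steadies the fork, rose by 0.53 and 0.63 (Timeless) and by 0.75 and 1.17 (Tipin).

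Of the 3 chromatin and histone supply genes measured, 1 rose in knockout and 1 fell in wild-type cells. Uhrf1, which guides maintenance DNA methylation to newly copied DNA, was at 9.80, 9.21 and 8.84 in wild-type naive, 8.76, 8.40 and 7.88 in knockout naive, 9.25 and 9.59 in wild-type activated, and 9.64, 9.68 and 9.31 in knockout activated cells. The naive arrays of the wild type reached above the activated ones, and those of the knockout lay below all activated arrays. Its change was 0.14 (SE 0.27) in wild-type cells and a rise of 1.20 (SE 0.24, limma adjusted p = 9.04e-04) in knockout cells. Chaf1b, a subunit of the histone chaperone CAF-1, fell in wild-type cells (-0.57, SE 0.17, limma adjusted p = 0.0158) and gave 0.01 in knockout cells. Its second probe set gave 0.06 in wild-type cells. Slbp, which binds the stem-loop of histone mRNA, gave -0.11 and 0.20, and a dimmer probe set of it gave -0.68 in knockout cells.

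Leaving out arrays changed the wild-type count most. Leaving out wild-type activated replicate 2 left 1 array in that group, which was assumed to vary like the other groups. The median change of the 41 genes in wild-type cells was then 0.21 log2, with 27 of 41 positive. Of the 20 rises in wild-type cells, 9 held with each of the 11 arrays left out in turn. These were Orc2, Mcm2, Mcm3, Mcm5, Mcm6, Pold2, Timeless, Tipin and Ung. In knockout cells 27 of the 30 rises held in the same way, all but Mcm7, Mcm10 and Pola1. The fall of Chaf1b was lost on leaving out either wild-type naive replicate 1 or replicate 1 of wild-type activated cells. Without wild-type naive replicate 3, 5 genes fell in wild-type cells. In that fit 39.8% of all genes were called, and 48.6% of these calls were higher.

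The replication genes were set beside 4 lists of neighbouring function. Of 39 other replication genes, 25 rose and 3 fell in knockout and 14 rose and 8 fell in wild-type cells, with medians of 0.44 and 0.12 log2. Mcm8, a helicase of recombination, rose by 0.50 and 1.30 in wild-type and knockout cells, and Nasp, a histone chaperone, by 0.96 and 1.20. Exo1, an exonuclease, gave 0.18 in wild-type cells and rose by 1.41 in knockout cells. Against this direction Pclaf, a PCNA-binding protein, fell in both (-1.61 and -1.21), and Clspn, a checkpoint adaptor, fell in wild-type cells (-0.92).

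Genes that supply nucleotides were mostly higher after activation. Of the 18 measured genes, 13 rose and 2 fell in knockout and 9 rose and 3 fell in wild-type cells, with medians of 0.81 and 0.38 log2. Shmt1, a serine hydroxymethyltransferase of folate metabolism, rose from 7.48, 7.29 and 7.26 to 10.27 and 10.67 in wild-type cells, a change of 3.13 (SE 0.12). Dctd, the dCMP deaminase, rose by 1.92 and 2.68, Cad, which starts pyrimidine synthesis, by 1.52 and 1.95, and Ctps, a CTP synthase, by 1.55 and 1.89. Rrm2, the regulated subunit of ribonucleotide reductase, went the other way in wild-type cells (-1.57, SE 0.33, limma adjusted p = 0.00168) and gave -0.50 in knockout cells without passing.

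Genes that control entry into S phase moved in both directions, 14 up and 11 down of 26 in knockout and 10 up and 10 down in wild-type cells. Myc rose by 2.10 and 2.22, while the cyclin-dependent kinase inhibitor Cdkn1b fell (-1.85 and -2.24), as did the pocket protein gene Rbl2 (-1.53 and -1.88). E2f2 fell as well (-2.39 and -2.05), and so did E2f8, a repressor of the E2F family (-1.96 and -0.93). Mitosis genes fell and none rose. Of 25, 23 fell in wild-type and 13 in knockout cells, with medians of -1.04 and -0.57 log2. Mki67, the proliferation antigen, fell from 10.73, 10.36 and 9.87 to 7.89 and 8.16 in wild-type cells, and Ccnb2 (-2.12 and -1.54), Kif23 (-2.02 and -2.11) and Nusap1 (-2.04 and -1.55) fell in both. In bulk samples fewer cells of a type and less RNA per cell cannot be told apart.

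**Figure D3:**
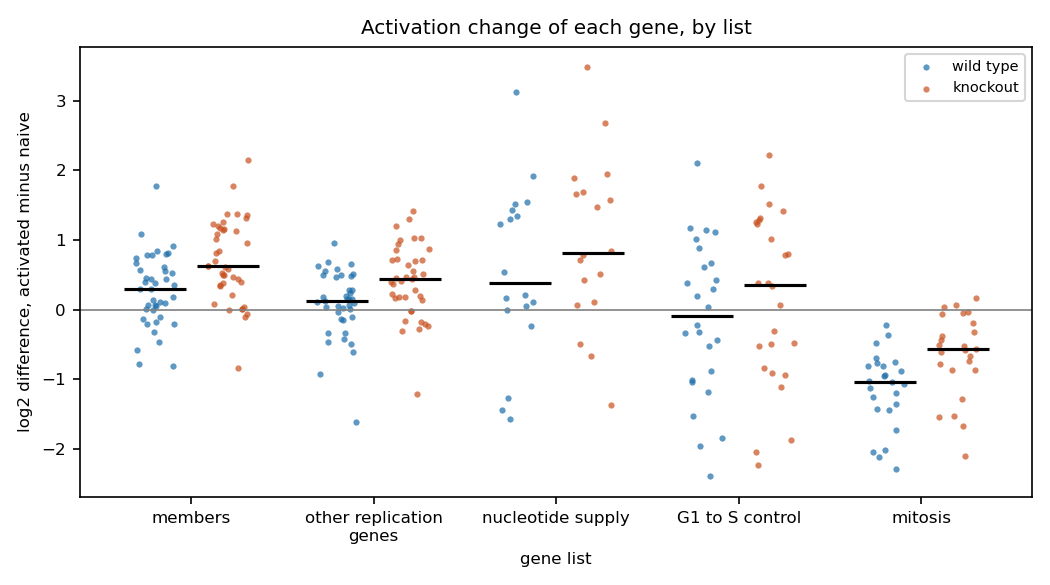
Change on activation (log2, activated minus naive) of each gene of 5 lists, 1 point a gene, in wild-type (blue) and knockout cells (orange); black bars are list medians and sideways scatter carries no meaning. The bars of the replication genes stand at 0.30 and 0.63, those of nucleotide supply at 0.38 and 0.81, and those of mitosis at -1.04 and -0.57.

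In naive cells the question was whether the knockout changes the replication genes at rest. None of the 41 genes passed (limma, adjusted p under 0.05), where 0.148% of all genes did, 0.0769% higher and 0.0715% lower. The lowest adjusted p was 0.139, for Rpa2. By direction 39 of 41 were lower in the knockout, with a median of -0.33 log2 against 0.01 over all genes, and 26 had an unadjusted p under 0.05, each of them lower, where 7.54% of all genes were lower at that threshold. Without wild-type naive replicate 1 the median was -0.18, with 37 of 41 lower, and Cdc6 gave -0.61 in place of -1.09. The knockout arrays lay wholly below the wild-type arrays for 15 genes and wholly above for 1 (Orc1), where 10.4% and 9.94% of all genes did so.

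Cdc6 had the largest naive difference (-1.09, 95% confidence interval -1.83 to -0.35), with overlapping arrays. Uhrf1 followed at -0.94 (-1.45 to -0.42), then Dscc1 at -0.85 (-1.36 to -0.34), Gins1 at -0.74 (-1.20 to -0.28) and Mcm10 at -0.72 (-1.11 to -0.32). Dscc1 was at 7.71, 7.08 and 6.83 in wild-type and at 6.75, 6.52 and 5.81 in knockout naive cells, without overlap. Rpa2 was at 9.64, 9.46 and 9.34 in wild-type and at 9.22, 8.92 and 8.98 in knockout naive cells, also without overlap, a difference of -0.44 (-0.67 to -0.21). Rpa1 lay at the other end with -0.002 (-0.15 to 0.15). Cdc45 and Orc1 were the only genes with a positive difference, at 0.13 and 0.12.

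These naive differences moved with 2 arrays. Wild-type naive array 1 was the highest of the 6 naive arrays for 38 of 41 genes, and knockout naive array 3 was the lowest for 30. The median level of the 41 genes was 9.13, 8.97 and 8.77 in the wild-type naive arrays and 8.66, 8.60 and 8.40 in the knockout naive arrays. The genes spread more than others in naive cells. Their median SD was 0.22 in wild-type and 0.16 in knockout naive cells, against 0.09 and 0.08 over all genes. In activated cells it was 0.17 against 0.10 over all genes in the wild type and 0.09 against 0.08 in the knockout. The range over the naive arrays exceeded that over the activated arrays for 37 of 41 genes, with medians of 0.72 and 0.28 log2.

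Markers of another cell type moved with the same arrays. The 12 measured erythroid markers of 16 had a summed linear level of 11346.6, 5481.5 and 2725.2 in the wild-type naive arrays and of 3800, 1446.3 and 1064 in the knockout naive arrays. In activated cells the sum lay between 1200.7 and 1230.1 in the wild type and between 793.4 and 1497 in the knockout. Car1, the carbonic anhydrase of red cells, was at 11.13, 10.28 and 9.73 in wild-type and at 9.83, 8.47 and 7.28 in knockout naive cells. Car2 and Slc4a1, the band 3 anion exchanger, spread likewise, from 8.13 to 11.79 and from 6.51 to 10.02 over the naive arrays, and Hba-a1 was at background in every wild-type naive and every knockout activated array. In the naive comparison 0 of 12 passed, with a median of -1.64. On activation 7 of 12 fell in wild-type and 2 of 12 in knockout cells. The median of the mitosis genes was 8.36, 7.78 and 7.51 in the wild-type naive arrays, and 7.56, 7.06 and 6.88 in those of the knockout. The part of erythroid cells, or of other dividing cells, in the naive differences and in the activation changes was not tested.

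The progenitor markers followed a like order, with sums of 3086.1, 2753.5 and 2435.8 in the wild-type naive and of 2480.2, 2247.2 and 2046.4 in the knockout naive arrays. Among them Kit, a growth factor receptor, was at 8.07, 7.78 and 7.37 in wild-type and at 7.23, 6.88 and 6.67 in knockout naive cells, and Cd34 was at background in all knockout and 2 of 3 wild-type naive arrays. Flt3, another receptor of the list, went the other way, at 6.61, 6.63 and 6.61 in the wild-type naive and 6.76, 6.86 and 6.91 in the knockout naive arrays. Most of the progenitor sum came from Myb, the brightest of the list. It was at 11.23, 11.08 and 10.87 in wild-type and at 10.93, 10.77 and 10.61 in knockout naive cells. Gata2, the second brightest, was nearly level, between 7.958 and 8.145 over the naive arrays. The summed B cell level was between 1203 and 1537 in wild-type and between 1419 and 3102.6 in knockout naive cells, with its top in knockout naive array 1. The summed list of granulocyte precursors and neutrophils had its top in the same array, 1643.6 against 490.3 to 884.9 in the other naive arrays, but its members were split. The granule protease genes Prtn3 and Ctsg and the peroxidase gene Mpo, of precursors, were highest in wild-type naive array 1 and lowest in knockout naive array 3. Mpo was at 8.34, 7.67 and 6.78 in the wild-type naive and 7.19, 7.14 and 5.96 in the knockout naive arrays. The neutrophil genes S100a8, S100a9 and Ngp were highest in knockout naive array 1, at 8.49, 8.51 and 8.27. The T cell markers summed to between 35251 and 39249.5 in naive and between 22107.8 and 25467.4 in activated cells. The plasma cell sum lay between 6221.1 and 8166.9 in naive cells, that of NK cell markers between 2278.7 and 3110.9, that of macrophage markers between 693.4 and 1077.8, that of platelet markers between 998.3 and 1174 and that of germinal centre markers between 532.1 and 734.2. By group mean all 4 NK cell markers were higher in naive knockout cells. The arrays did not overlap for 2 of the 4, where 9.94% of all genes were higher in that way, and those of Nkg7 and Klrk1 overlapped. Of the 4, 1, Klra8, passed (0.94, SE 0.16, limma adjusted p = 0.0384).

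Many markers of other cell types were also lower after activation, and so were many of T cells. Of 9 T cell markers, 6 fell in each genotype, and 1 rose in wild-type cells. Over all genes 20.9% fell in wild-type and 22.4% in knockout cells. In wild-type cells 4 of 7 B cell, 4 of 9 granulocyte, 5 of 9 macrophage, 2 of 4 NK cell and 4 of 5 progenitor markers fell, and 0 of them rose. In knockout cells the falls were 4, 4, 5, 3 and 3, again with 0 rises. Of 6 plasma cell markers 1 rose and 1 fell in each genotype, the fall being that of Jchain, the joining chain of antibodies (-3.10, SE 0.14, in wild-type and -2.75, SE 0.13, in knockout cells). Of 6 platelet markers 1 fell in wild-type cells, and 2 fell and 1 rose in knockout cells. The part of these other cell types in the activation changes was not tested.

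The count of naive differences depended on the fit. With array quality weights 14 of 41 genes were lower in the knockout (6.8% of all genes called, 46.2% of these higher). With replicate number as a block 6 were lower (1.52% of all genes called, 26.4% of these higher). Without wild-type naive replicate 3 the count was 7 (1.87% of all genes called, 26.7% of these higher). Wild-type naive replicate 1 and knockout naive replicate 3 were also left out together, a choice made after seeing the data. Then 0 of the 41 genes passed (0.055% of all genes) and the median difference was -0.13, with 37 of 41 lower. These arrays were most often the highest and the lowest of the naive ones, so a smaller difference follows from the choice itself. In that fit 30 genes rose in knockout and 22 in wild-type activation. Of all genes 41% and 37.8% were called, and 48.1% and 47.9% of these calls were higher.

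**Figure D4:**
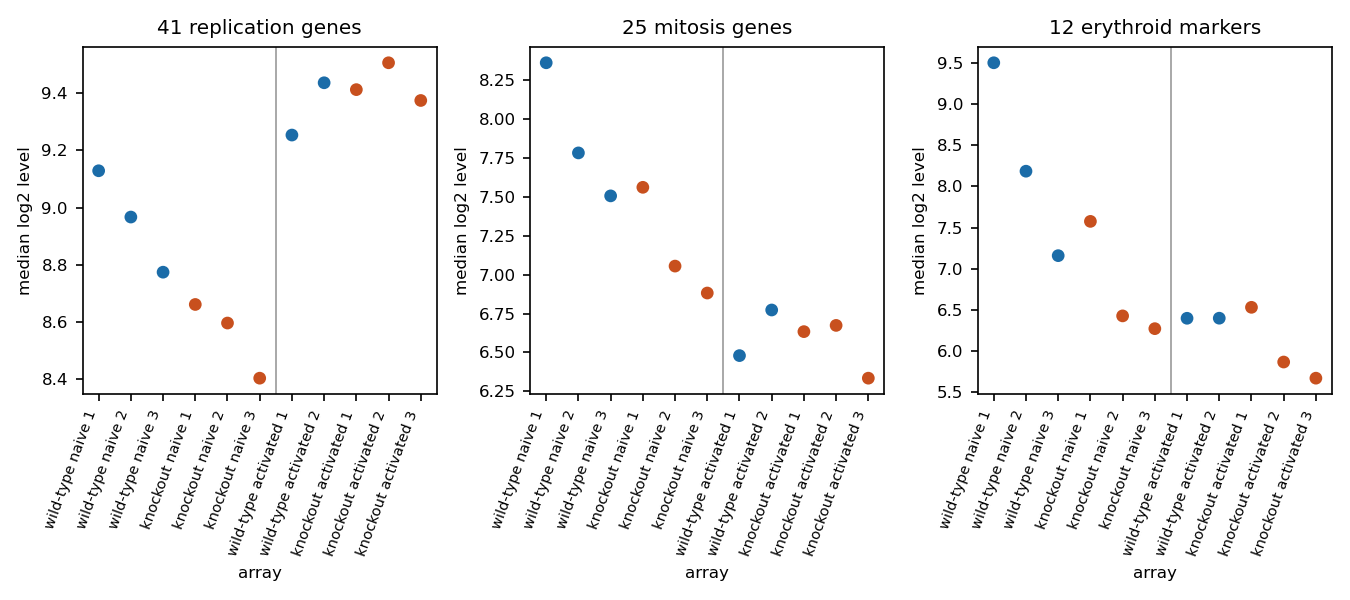
Median log2 level in each of the 11 arrays of the 41 replication genes (left), 25 mitosis genes (middle) and 12 erythroid markers (right), wild type in blue and knockout in orange, with a line between naive and activated arrays; the vertical scales differ and do not start at 0. In all 3 panels wild-type naive array 1 is the highest naive array and knockout naive array 3 the lowest, and of the 3 only the replication genes are higher in every activated array than in every naive array.

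In activated cells knockout and wild type were compared in the same way. None of the 41 genes passed (limma, adjusted p under 0.05), where 0.0605% of all genes did, 0.044% higher and 0.0165% lower, and 0 had an unadjusted p under 0.05, where 2.39% of all genes were higher and 4.51% lower at that threshold. The lowest adjusted p was 0.816, for Orc2. Differences ran from -0.07 (Rfc2) to 0.24 (Rfc4), with a median of 0.07 log2 against -0.02 over all genes, and 30 of 41 were positive. The knockout arrays lay wholly above the wild-type arrays for 4 genes (Mcm2, Mcm3, Rfc4 and Prim2) and wholly below for 0, where 7.37% and 12% of all genes did so. With 2 wild-type arrays the intervals had a median half-width of 0.30 log2, and for Cdc6 the interval ran from -0.76 to 0.90. A difference of Cdc6 anywhere within those bounds was therefore compatible with these arrays. On the mean of both states 0 genes passed as well (0.104% of all genes, 0.0605% higher and 0.044% lower), and 7 had an unadjusted p under 0.05, all lower in the knockout, where 4.17% of all genes were lower at that threshold.

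**Figure D5:**
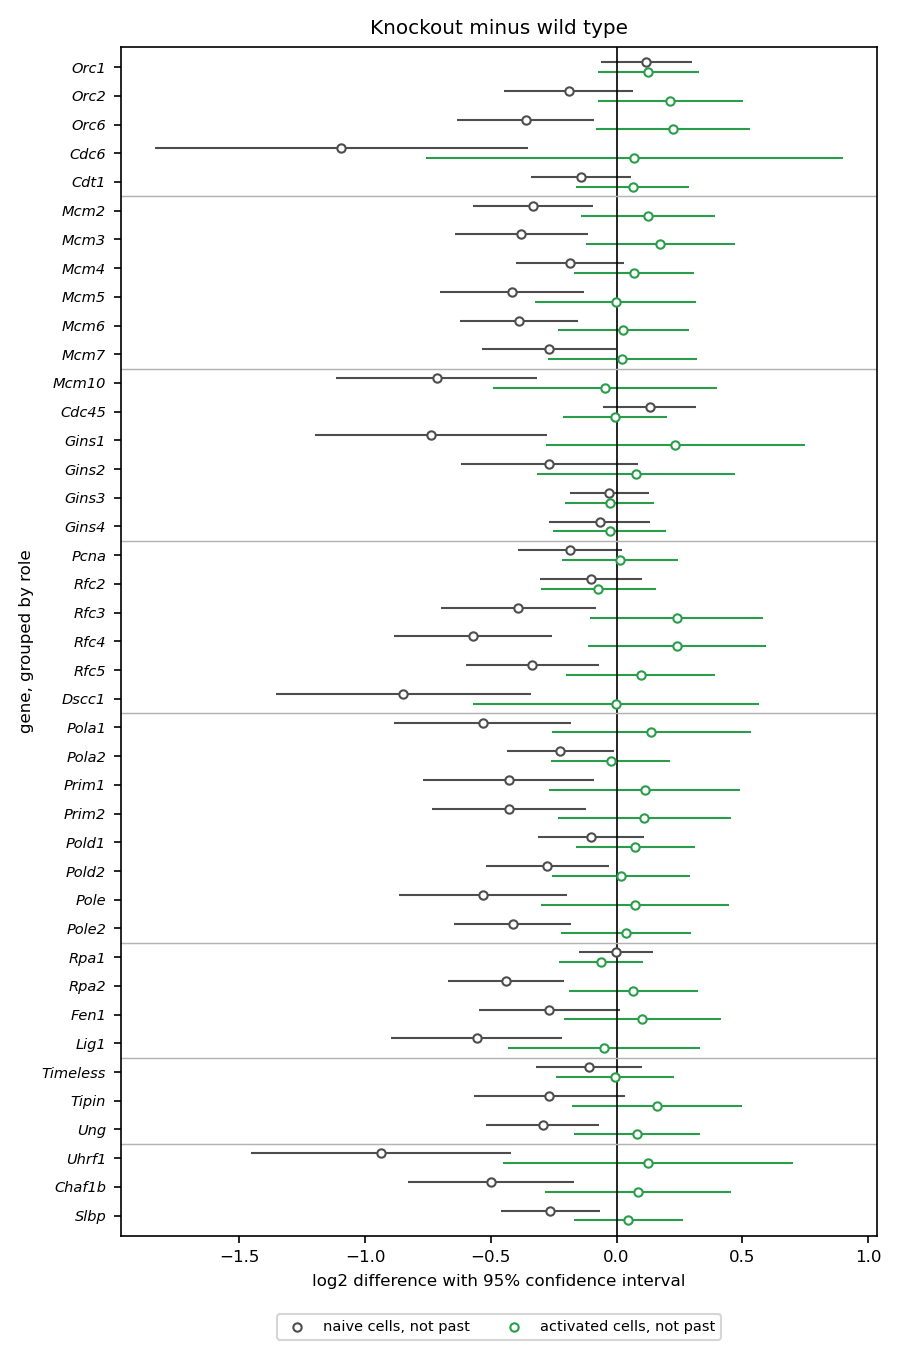
Knockout minus wild type in log2 units with 95% confidence intervals from limma for each of the 41 genes (rows, grouped by role), in naive cells (grey) and activated cells (green); open points did not pass an adjusted p of 0.05, which holds for all of them. The naive points lie left of 0 for 39 of 41 genes and the activated points gather around 0, between -0.07 and 0.24.

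The interaction asked whether the change on activation differed between genotypes. No gene of the 18194 passed (0% called by limma), and neither did any of the 41. The estimate was positive for 39 of 41 replication genes, which means a more positive change in the knockout, against 8190 of 18194 genes overall. For 6 of the 39 (Cdc6, Cdt1, Chaf1b, Gins3, Lig1 and Rfc2) the change in the knockout was the smaller in absolute size. The median estimate was 0.42 log2, or 0.22 without wild-type naive replicate 1 and knockout naive replicate 3, and 22 of the 41 had an unadjusted p under 0.05, all positive, where 5.72% of all genes were positive at that threshold. Rfc4 had the lowest adjusted p (0.81, SE 0.22, limma adjusted p = 0.24), and the largest estimates were those of Cdc6 (1.16, SE 0.51), Uhrf1 (1.06, SE 0.36) and Gins1 (0.97, SE 0.32). The estimate is built from the same naive arrays as the naive comparison, so its sign is no second observation of that difference. The larger activation estimates in knockout cells and the lower naive levels are therefore given side by side and not as separate results.

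Probe sets other than the brightest existed for 31 of the 41 genes, 45 in all. Among genes called in wild-type activation, 20 of 22 other probe sets had the same direction, and in knockout activation 31 of 34 did. None was called in the opposite direction. Where the brightest probe set did not pass, another passed for 3 probe sets in wild-type and 4 in knockout activation, among them those of Rfc3 (0.80 in wild-type cells) and Slbp given above.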

How the data were processed

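Purified splenic T cells gave RNA for 11 Affymetrix arrays of 1 colour. Images were handled with GCOS and probe set values computed by RMA in Partek, per the submitters' processing notes, with no versions named. All 45101 probe sets were used with their deposited log2 values unchanged. RMA adjusts arrays to a common distribution, so a shift shared by most genes would not be seen. Symbols came from the platform annotation, checked against a GRCm38.p6 gene table: 34958 probe sets had 1 symbol, 932 several and 9211 none. The brightest probe set represented each of 18194 genes. A level under 4.57, the lowest lower quartile of any array, is called background.

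Differences were fitted over all 11 arrays with limma 3.58.1 in R 4.3.3, with 4 group means and variance moderation (5.46 prior and 7 residual degrees of freedom), and adjusted by Benjamini-Hochberg over all genes. The fit was tested on simulated data. Promoter windows were searched and figures drawn with Python 3.11.15 and matplotlib 3.10.9. The genes, lists, tests and the naming rule (all replication genes, up to 4 largest called changes of each other list, the 3 brightest markers of each cell type) were chosen with earlier results of these data known. Cd34, Ctsg, Elane, Flt3, Hba-a1, S100a8 and S100a9 fall outside that rule and were named after their values were seen. Arrays were not treated as pairs, as the labels do not say that equal replicate numbers share an animal. Deviations of same-numbered arrays of a genotype correlated from -0.30 to 0.27 over 5 pairs. Those of same-numbered wild-type and knockout naive arrays correlated at 0.39, 0.02 and 0.31. These values cannot exclude pairing, because the deviations of the 2 wild-type activated arrays mirror each other (-0.30 and 0.30 with wild-type naive array 1). Alternatives covered probe set choice, a level filter, the variance model, array weights, normalization, blocks and leaving out each array.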

Additional observations from a re-analysis of the deposited data

How the results depend on the processing

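Counts of replication genes were recomputed under up to 12 alternative settings and with each of the 11 arrays left out. Rises ranged from 28 to 31 in knockout and from 16 to 22 in wild-type activation under the alternatives, and from 27 to 32 and from 9 to 22 with an array left out (9 without wild-type activated replicate 2). The fit behind the 9 left 1 array in its group, so that count is not a result about the replication genes alone. Calls over all genes also moved with the array left out. In knockout activation they numbered 7851 in the main fit. They were 7313 without knockout naive replicate 2, where 27 replication genes rose, and 7925 without wild-type naive replicate 1, where 32 rose. In wild-type activation they numbered 7475, and 6826 without wild-type naive replicate 1, where 22 rose. Falls ranged from 1 to 1 and from 1 to 5 with an array left out. Falls numbered 2 in knockout activation with the second brightest probe set, and 4 in wild-type activation both after quantile normalization once more and with the fixed replicate block. In naive cells the count lower in the knockout was 0 to 7 with an array left out, 14 with array quality weights and 6 with replicate number as a fixed replicate block; a random block within genotype changed no such count. In the other comparisons between genotypes and in the interaction 0 genes passed under every alternative run. In knockout cells each naive array correlated best with its own number (0.27, 0.09 and 0.22), in wild-type cells the same-numbered pairs gave -0.30 and -0.18. With the second brightest probe set the direction turned for Cdc45 (0.62), Mcm10 (-0.008), Pole2 (-0.004) and Slbp (-0.68) in knockout and for Pole2 (-0.18) and Chaf1b (0.064) in wild-type activation, and with the mean of probe sets for Cdc45 in knockout activation (0.28). Apart from the choice of probe set and array, the cause of these shifts was not tested. Precision is limited by 2 to 3 arrays a group, above all in wild-type activated cells.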
